A study of Mus musculus with 24 samples.

Results

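Mesothelial genes are 6 genes (Msln, Upk3b, Lrrn4, Gpm6a, Krt19 and Wt1) that mark the cells covering the epididymal fat pad, taken by symbol from the 16730 genes measured in eWAT. All 6 were in the table and all 6 passed the filter on low counts, as part of the 15020 genes tested. Epididymal fat from 24 male mice was measured by QuantSeq 3′ RNA sequencing, with 6 mice in each of 4 groups that crossed genotype and diet. Lama4 fl/fl mice carried exon 3 of Lama4 between loxP sites without Cre, and their Lama4 AKO littermates carried the same floxed allele together with Cre driven by the adiponectin promoter. Mice were fed breeder chow or a high-fat diet (HFD; 45% fat) for 20 weeks and were 24 to 26 weeks old at collection. Mice were the replicates, and each library came from the eWAT of 1 mouse, so adipocytes, stroma, vessels, leukocytes and the surface layer were measured together.

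The mesothelium is a single sheet of flat cells that lines the peritoneal cavity and wraps the organs within it, including the fat pads of the abdomen. It arises from mesoderm but holds epithelial proteins such as keratins, carries microvilli and a glycoprotein coat, and gives a smooth, lubricated surface. Subcutaneous fat has no such covering, which makes these genes a feature of visceral depots. Wt1 is less restricted than the other members, since stromal cells of visceral fat are also known to express it. In bulk tissue, a lower level from fewer cells of a type cannot be told apart from less RNA per cell.

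On the GRCm38 build, with the GENCODE M21 annotation, Msln (ENSMUSG00000063011) lies on the reverse strand at chr17:25748613-25754378. Upk3b (ENSMUSG00000042985) lies on the forward strand at chr5:136038496-136046487, Lrrn4 (ENSMUSG00000043110) on the reverse strand at chr2:132868305-132880891, and Gpm6a (ENSMUSG00000031517) on the forward strand at chr8:54954843-55060871. Krt19 (ENSMUSG00000020911) lies on the reverse strand at chr11:100140810-100148665, and Wt1 (ENSMUSG00000016458) on the forward strand at chr2:105126529-105173616. The 6 genes are therefore on 5 chromosomes, and no pair of them overlaps. Gpm6a overlaps 5 other annotated genes on its own strand, none of which has a row in the count table.

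Since the members rose and fell together between mice (below), the promoters held by the RefSeq sequence table for this build (GRCm38.p6) are shown for 3 of the 6 members. Each window runs from 250 bases before a transcription start to 50 bases after it, 300 bases in all. Capitals mark GGAATG, the core motif of the TEAD family of transcription factors, or CATTCC, its reverse complement. Gpm6a has a pair of windows in that table: the one printed begins at chr8:54779184, upstream of the start annotated above. This motif was chosen after the windows had been read.
Lrrn4, chr2:132880813-132881112, reverse strand: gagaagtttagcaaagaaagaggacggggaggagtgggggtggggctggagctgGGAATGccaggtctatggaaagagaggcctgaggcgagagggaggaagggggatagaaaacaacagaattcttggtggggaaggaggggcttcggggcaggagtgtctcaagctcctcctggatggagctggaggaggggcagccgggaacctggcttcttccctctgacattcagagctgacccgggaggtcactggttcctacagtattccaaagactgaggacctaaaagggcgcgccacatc
Upk3b, chr5:136038246-136038545, forward strand: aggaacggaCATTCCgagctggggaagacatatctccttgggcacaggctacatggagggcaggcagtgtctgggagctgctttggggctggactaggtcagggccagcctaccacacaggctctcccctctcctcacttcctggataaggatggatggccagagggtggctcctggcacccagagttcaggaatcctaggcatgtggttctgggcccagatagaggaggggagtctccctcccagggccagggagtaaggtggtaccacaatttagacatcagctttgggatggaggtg
Gpm6a, chr8:54779184-54779483, forward strand: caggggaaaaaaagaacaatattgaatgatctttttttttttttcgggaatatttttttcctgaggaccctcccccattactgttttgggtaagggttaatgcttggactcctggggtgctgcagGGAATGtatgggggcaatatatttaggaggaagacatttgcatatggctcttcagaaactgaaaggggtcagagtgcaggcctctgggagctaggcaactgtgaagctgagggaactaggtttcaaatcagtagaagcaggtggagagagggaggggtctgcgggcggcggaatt
The motif begins at position -196 from the start in Lrrn4, at -241 in Upk3b and at -125 in Gpm6a. The other Gpm6a window, chr8:54954478-54954777, holds no GGAATG on either strand. Of 32851 RefSeq windows of this length, 14.7% hold the motif on at least 1 strand. GCGGGGGCG, a site known for WT1 and EGR proteins, occur in 2.91% of all windows and in none of the 4 windows of these genes. TATAAA occurs in 13.6% of all windows, and among the 4 it was found only on the reverse strand of the other Gpm6a window, beginning at -211. Promoters of Msln, Wt1 and Krt19 were not analysed here. These matches describe the letters of the reference sequence and no binding was measured.

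Library totals ranged from 5579590 to 18764516 counts. The first principal component held 45.9% of the variance and divided the HFD-fed Lama4 fl/fl mice, with replicates 1, 2 and 5 at 48.3 to 73.5 and replicates 3, 4 and 6 at -76.1 to -9.76. A chow-fed Lama4 fl/fl mouse, number 3, at 46.8, and number 5 of the chow-fed Lama4 AKO mice also lay toward the side of the HFD-fed Lama4 AKO mice. The study removed outlying mice without naming them in its text, so the main results rest on all 24 libraries, and those without 5 mice (these 2 and HFD-fed Lama4 fl/fl replicates 3, 4 and 6) are given beside them as the 19 libraries. Lama4 itself was compared between Lama4 AKO and Lama4 fl/fl eWAT, with chow-fed medians of 113 and 91.1 CPM (counts per 1000000 counts of a library) and a log2 fold change of 0.11 ± 0.34 (SE; adjusted p = 0.980, edgeR with Benjamini-Hochberg adjustment). On HFD the medians were 44.3 and 79.8 CPM and the log2 fold change was -0.69 ± 0.35 (SE; edgeR adjusted p = 0.347). QuantSeq reads come from the 3′ end and lie outside the deleted exon, and cells other than adipocytes also express Lama4, so this gene does not check the genotype labels, which are used as given.

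Msln encodes mesothelin, a lipid-anchored surface glycoprotein that binds the mucin Muc16. Its level in chow-fed Lama4 fl/fl mice ran from 2.39 to 15.4 CPM, with a median of 5.90. In chow-fed Lama4 AKO mice it ran from 2.85 to 22.4 CPM, with a median of 4.29, and in HFD-fed Lama4 fl/fl mice from 1.49 to 9.41 CPM, with a median of 5.33. In HFD-fed Lama4 AKO mice it ran from 0.271 to 2.97 CPM, with a median of 2.07. Replicates 4 and 6 of the HFD-fed Lama4 AKO mice, at 0.271 and 0.972 CPM, lay below every mouse of the other groups, and the groups still overlapped, since 2 chow-fed Lama4 AKO mice were at or below the highest HFD-fed Lama4 AKO mouse. The lowest value, in HFD-fed Lama4 AKO replicate 4, was 3 counts.

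Upk3b encodes a membrane protein of the uroplakin family. It ran from 5.24 to 54.3 CPM (median 16.5) in chow-fed Lama4 fl/fl mice, from 9.99 to 67.5 CPM (median 22.8) in chow-fed Lama4 AKO mice, from 7.96 to 33.1 CPM (median 17.9) in HFD-fed Lama4 fl/fl mice and from 1.72 to 20.5 CPM (median 11.9) in HFD-fed Lama4 AKO mice. Lrrn4, a transmembrane protein with leucine-rich repeats, ran from 2.78 to 27.7 CPM (median 8.28), from 4.33 to 31.2 CPM (median 12.49), from 2.07 to 17.0 CPM (median 8.60) and from 0.904 to 8.69 CPM (median 3.95) in the same order of groups. For both genes the HFD-fed Lama4 AKO group had the lowest median, with overlap between all groups.

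Gpm6a, a membrane glycoprotein best known from neurons, ran from 9.02 to 42.6 CPM (median 16.5) in chow-fed Lama4 fl/fl mice, from 7.46 to 58.4 CPM (median 14.8) in chow-fed Lama4 AKO mice, from 7.77 to 32.4 CPM (median 19.6) in HFD-fed Lama4 fl/fl mice and from 2.08 to 21.3 CPM (median 15.6) in HFD-fed Lama4 AKO mice. Krt19, a keratin of simple epithelia and mesothelium, ran from 2.31 to 16.0 CPM (median 4.05), from 1.59 to 18.97 CPM (median 5.19), from 2.39 to 11.8 CPM (median 8.22) and from 0.633 to 6.34 CPM (median 3.498) in that order of groups. The medians of Gpm6a lay close together, and only its lowest HFD-fed Lama4 AKO mice, replicates 4 and 6 at 2.08 and 3.09 CPM, fell below the range of the other groups.

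Wt1, a zinc finger transcription factor needed for formation of the mesothelium in the embryo, did not share this order. It ran from 4.55 to 15.03 CPM (median 8.23) in chow-fed Lama4 fl/fl mice, from 4.92 to 13.2 CPM (median 9.28) in chow-fed Lama4 AKO mice, from 4.34 to 27.1 CPM (median 8.59) in HFD-fed Lama4 fl/fl mice and from 5.97 to 17.6 CPM (median 11.6) in HFD-fed Lama4 AKO mice. Over all 24 libraries, the highest Wt1 level was 6.25 times the lowest. That ratio was 28.1 for Gpm6a, 29.97 for Krt19, 34.5 for Lrrn4, 39.3 for Upk3b and 82.5 for Msln, so Wt1 varied least between mice.

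On the log2 CPM scale, the group means of Msln, Upk3b and Lrrn4 were highest in Lama4 AKO mice on chow, followed by Lama4 fl/fl mice on chow, then on HFD, and were lowest in Lama4 AKO mice on HFD. Msln had means of 2.70 ± 1.32, 2.57 ± 0.89, 2.29 ± 0.90 and 0.71 ± 1.08 (SD, n = 6 each) in that order. The 3 upper groups differed by less than 1 SD, and the step to the HFD-fed Lama4 AKO mice was larger than the SD of each group. The highest and lowest group means were 1.99 apart for Msln, 1.78 for Lrrn4, 1.53 for Upk3b, 1.18 for Krt19 and 1.06 for Gpm6a, with HFD-fed Lama4 AKO lowest in each. For Wt1 the span was 0.37, less than the SD of every group, and HFD-fed Lama4 AKO had the highest mean.

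**Figure D1:**
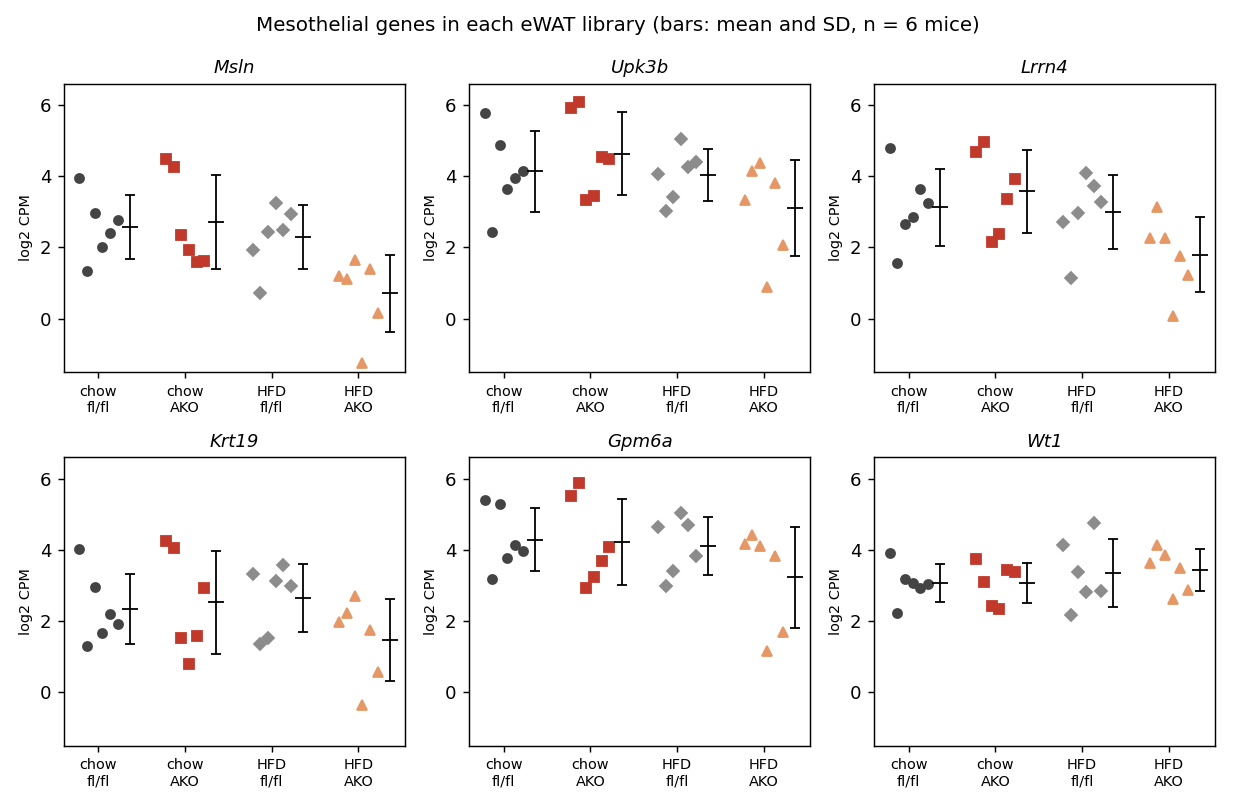
Level of each mesothelial gene in log2 CPM (vertical axis) in each of 24 eWAT libraries, by group; points are mice and black bars are the mean and SD of 6. HFD-fed Lama4 AKO mice have the lowest mean for all genes shown except Wt1, and groups overlap for every gene.

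Mice of the same group differed by up to 11.9-fold in a member (Upk3b, HFD-fed Lama4 AKO mice), and the members followed each other from mouse to mouse. For 5 of the 6 members (all but Wt1), the 3 highest libraries of the series were the same: chow-fed Lama4 AKO replicates 1 and 2 and chow-fed Lama4 fl/fl replicate 1. HFD-fed Lama4 AKO replicate 4 was the lowest library for the same 5 genes. In chow-fed Lama4 fl/fl mice, for example, Upk3b was 54.3 CPM in replicate 1 and 5.24 CPM in replicate 2, while Krt19 was 16.0 and 2.31 CPM and Gpm6a 42.6 and 9.02 CPM in the same mice.

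Correlations were computed over the 24 libraries after each group's mean was subtracted from the log2 CPM, so that no diet or genotype difference entered them. All 15 pairs of members were positively correlated. The 10 pairs without Wt1 had Pearson's r of 0.82 to 0.94 and Spearman's rho of 0.80 to 0.94, with Benjamini-Hochberg adjusted p of 2.14e-05 to 0.000105 for r over the 15 pairs (two-sided permutation tests, 1e+05 shuffles within groups) and adjusted p for rho of at most 0.000109. Without the 2 libraries farthest from the median, r was 0.75 to 0.93, and in the 19 libraries 0.84 to 0.96. The closest pair was Upk3b and Gpm6a, with r = 0.94 and rho = 0.94.

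Wt1 was less tightly tied to the other members. Its 5 pairs had r of 0.50 to 0.72 and rho of 0.50 to 0.80, with adjusted p of 0.000109 to 0.0151 for r and at most 0.0180 for rho in the same permutation tests. Without the 2 farthest libraries r was 0.33 to 0.71, and with Msln, its weakest partner, it fell from 0.50 to 0.33. Within single groups, each of 6 mice, r of the Wt1 pairs ran from 0.24 to 0.97, and for each of these pairs it was lowest in HFD-fed Lama4 fl/fl mice. There, Wt1 was highest in replicates 5 and 1, at 27.1 and 17.5 CPM, while Upk3b was highest in replicate 4, at 33.1 CPM, where Wt1 was 6.90 CPM. Replicate 4 is 1 of the 5 libraries that stood apart, and in the 19 libraries r of the Wt1 pairs was 0.74 to 0.89. In the pairs without Wt1, r within single groups was 0.59 to 0.98.

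**Figure D2:**
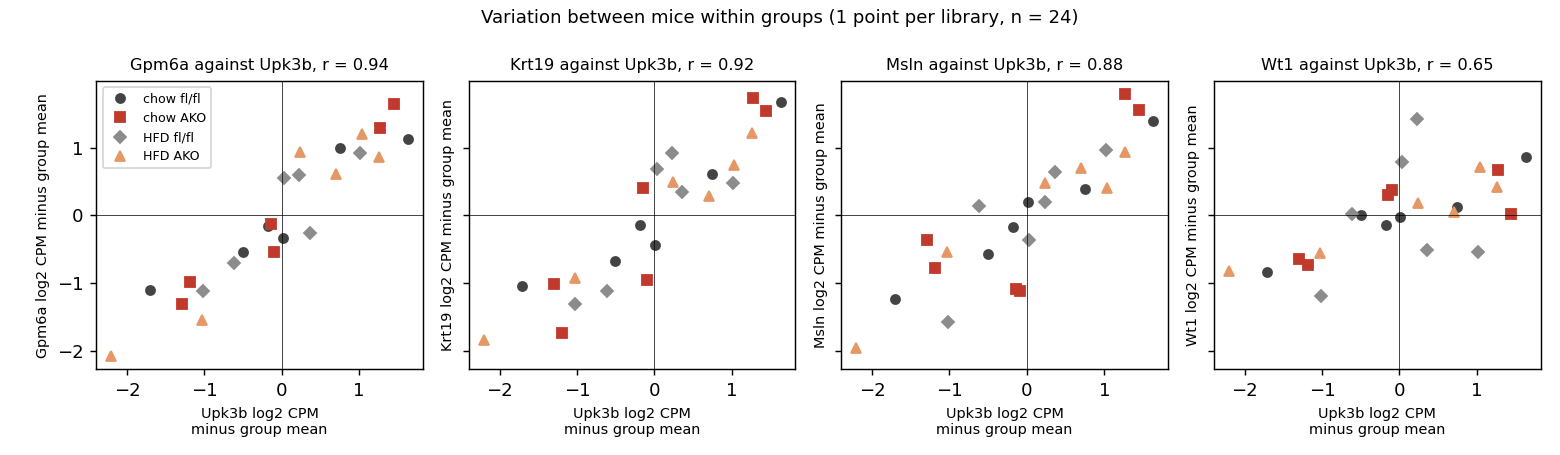
Log2 CPM of mesothelial genes minus the group mean (vertical axes) against that of Upk3b (horizontal axes); each of 24 points is 1 library, with symbols for the 4 groups. Points follow a line for Gpm6a (r = 0.94), while for Wt1 (r = 0.65) they spread, mainly in HFD-fed Lama4 fl/fl mice.

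Other cell types also varied between these mice. The summed level of 10 adipocyte markers was 54052 CPM in chow-fed Lama4 fl/fl replicate 1, 42096 in chow-fed Lama4 AKO replicate 1 and 38292 in chow-fed Lama4 AKO replicate 2, the 3 libraries highest in mesothelial genes. It was 37215 CPM in chow-fed Lama4 AKO replicate 3. There Upk3b, at 9.99 CPM, was the lowest of its group. Msln, at 4.93 CPM, lay above its group median of 4.29 CPM. The adipocyte sum was also 48033 and 40866 CPM in HFD-fed Lama4 fl/fl replicates 4 and 6. The summed level of 8 macrophage markers was 1065, 1307 and 2496 CPM in the 3 high libraries and 1515 CPM in chow-fed Lama4 AKO replicate 3. The part of these cell types in the levels was not tested.

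To describe which other genes varied most like the members, each gene tested was correlated with the mean of the 6 members' standardised levels, over the 24 libraries with group means subtracted. The 10 most similar of 15014 genes were Upk1b (r = 0.97), Nkain4 (0.93), Chst4 (0.92), Mpzl2 (0.91), Spock2 (0.91), Crym (0.89), Muc16 (0.89), Krt7 (0.88), Slc39a8 (0.88) and Cxadr (0.87). Upk1b is a tetraspanin that pairs with Upk3b in uroplakin complexes, Nkain4 a small membrane protein that interacts with the sodium pump, and Muc16 the surface mucin bound by mesothelin. Krt7 is a keratin of simple epithelia, Cxadr and Mpzl2 are adhesion proteins, and Chst4 is a sulfotransferase of glycoproteins. Across all genes the 5th percentile of r was -0.48, the median -0.019 and the 95th percentile 0.46. These points share libraries and depth, and r is given as a description.

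Upk1b, Nkain4, Muc16 and Krt7 are also on a list of 22 further mesothelial genes, of which 20 were in the table and Calb2 and Gata4 were not analysed here. Of the 20, 13 had r above the 95th percentile of all genes. Those were, beside the 4 named, Krt18 (0.86), Slpi (0.86), Rspo1 (0.86), Efemp1 (0.84), Krt8 (0.72), Clu (0.70), Bnc1 (0.68), Bcam (0.67) and Cdh3 (0.57). Krt8 and Krt18 are the keratin pair of simple epithelia, Slpi is a secreted protease inhibitor, and Bnc1 is a zinc finger factor of mesothelium and other epithelia. Igfbp5 (0.45) and Cldn15 (0.25) lay below that percentile. At the other end, Ezr (0.085), Pdpn (-0.057), Tbx18 (-0.088), Aldh1a2 (-0.21) and Cdh1 (-0.30) did not follow the members. Pdpn is also made by macrophages and lymphatic endothelium, and Ezr, a linker of membrane and actin, by most epithelia and leukocytes.

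Every member had at least 3 counts in each of the 24 libraries, so RNA of all 6 was detected in every mouse. The lowest counts, 3 of Msln and 7 of Krt19 in HFD-fed Lama4 AKO replicate 4, do not by themselves show mesothelium in that library. Epithelium of the neighbouring epididymis, a possible neighbour in such dissections, was checked too: 5 of its 15 markers were in the table, and Lcn5, Spink8 and Adam7 reached 233, 105 and 73 counts in chow-fed Lama4 fl/fl replicate 4 against at most 8, 9 and 13 counts elsewhere. Ceacam10 and Aqp9 did not share this pattern. Ceacam10 had 6 counts in that mouse, 41 in HFD-fed Lama4 AKO replicate 4 and 35 in HFD-fed Lama4 fl/fl replicate 2. Aqp9 had 33 counts in that mouse and 52 in HFD-fed Lama4 fl/fl replicate 5. In chow-fed Lama4 fl/fl replicate 4, Krt19 was 3.05 CPM and Msln 3.85 CPM, both below their group medians. The part of epididymal tissue in the member levels was not tested. The general epithelial markers Epcam and Cldn3 reached at most 18 and 33 counts in any library.

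**Figure D3:**
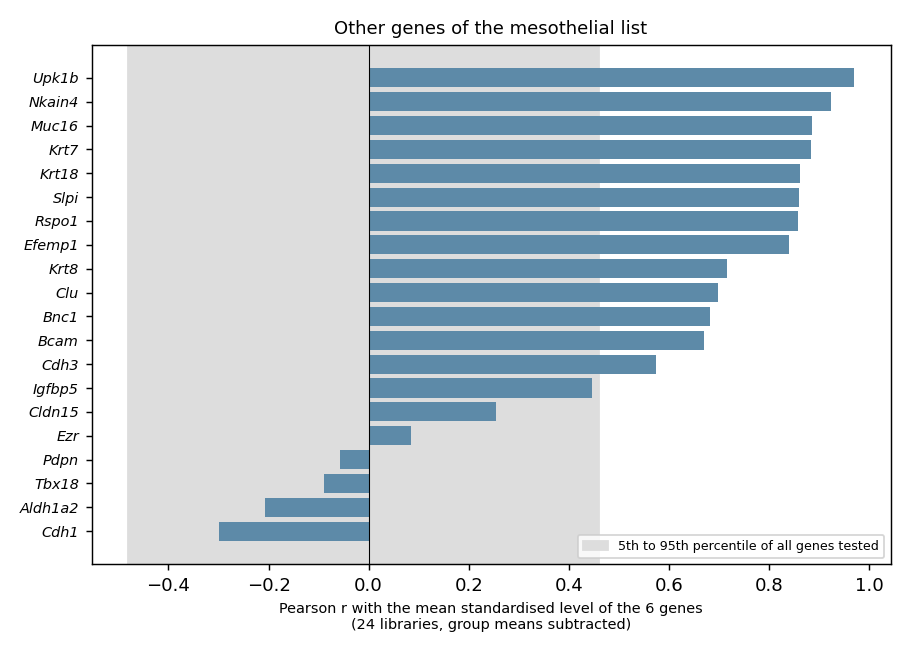
Pearson r of each of 20 further mesothelial genes with the mean standardised level of the 6 members over 24 libraries, group means subtracted (horizontal axis); the grey band spans the 5th to 95th percentile of all genes tested. Upk1b (0.97) lies at the top and 13 genes lie beyond the band.

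HFD feeding was compared with chow feeding within each genotype. In Lama4 AKO mice, Msln was 5.13-fold lower on HFD, and it was the only member that passed the call (a fold change of 1.5 or more in either direction and a nominal p no higher than 0.001, with the higher group averaging 2 CPM or more). Its log2 fold change was -2.36 ± 0.60 (SE), with an adjusted p of 0.0188 (edgeR quasi-likelihood test, Benjamini-Hochberg over 15020 genes). Of all genes, 4.12% were called in this comparison and 2.83% were called lower, against 1 of the 6 members. The 3-count library, HFD-fed Lama4 AKO replicate 4, counts in this value: without it the log2 fold change was -2.14.

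The call of Msln sat near its threshold. Across the 24 fits with 1 library left out, the log2 fold change stayed between -2.57 and -1.88 (edgeR), and the call was kept in 17. Those 17 include every fit that left out a Lama4 fl/fl mouse. Such mice are not in this comparison, and without them the value stayed at -2.37 to -2.36. Among the compared mice, the call was kept only without chow-fed Lama4 AKO mouse 3, 4, 5 or 6 or HFD-fed Lama4 AKO mouse 3. The nominal threshold was missed on leaving out the chow-fed Lama4 AKO mouse 1 (log2 fold change -1.88) or 2 (-2.03), those with the highest Msln. The same held for each of the HFD-fed Lama4 AKO mice 1 (-2.42), 2 (-2.40), 4 (-2.14), 5 (-2.47) and 6 (-2.24). In the 19 libraries Msln was called, with a log2 fold change of -2.54 and an adjusted p of 0.00411 (edgeR, Benjamini-Hochberg), where 15.7% of all genes were. With limma-voom, the method of the study, the log2 fold change was -2.14 and Msln was not called.

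The other members gave smaller differences that did not pass the call. Lrrn4 was 3.74-fold lower on HFD in Lama4 AKO mice, with a log2 fold change of -1.90 ± 0.58 (SE) and an adjusted p of 0.0294 (edgeR, Benjamini-Hochberg). Upk3b had a log2 fold change of -1.52 ± 0.58 (adjusted p = 0.0591), Krt19 of -1.35 ± 0.62 (adjusted p = 0.109) and Gpm6a of -1.002 ± 0.57 (adjusted p = 0.188) in the same edgeR fit. Wt1 had a positive value, 0.38 ± 0.38 (SE, edgeR adjusted p = 0.468). A nominal p under 0.05 was reached by 4 of the 6 members, all lower (2 of the 6 without the chow-fed Lama4 AKO mouse 2), while 39.8% of all genes reached it and 21.6% did so as lower. An adjusted p of at most 0.05 was reached by 2 members, Msln and Lrrn4, both lower, against 22.1% of all genes in either direction and 12.9% as lower. The median log2 fold change of the members was -1.44, that of all genes was -0.00310. None of the 6 members had groups free of overlap, as 6.96% of all genes had. Because the members varied together between mice, counts and signs of members, here and below, are not independent observations.

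Of the 20 further mesothelial genes, 2 were called lower on HFD in Lama4 AKO mice and none higher. Among all genes, 2.83% were called lower and 1.29% higher. Igfbp5, a binding protein of insulin-like growth factors, had a log2 fold change of -1.67 ± 0.43 (SE), and Clu, the secreted chaperone clusterin, of -1.13 ± 0.29 (adjusted p = 0.0190 for each, edgeR with Benjamini-Hochberg adjustment). Both are also made by other cells of fat. In the sign of the fold change, 15 of the 20 were negative and 5 positive, where 50.3% of all genes were negative, and the median was -0.35. Among genes most like the members, Upk1b had a log2 fold change of -0.61 ± 0.58 (SE, edgeR adjusted p = 0.436), Nkain4 of -1.30 ± 0.52 (adjusted p = 0.0701) and Muc16 of -1.39 ± 0.62 (adjusted p = 0.0990), none of them past the call. Pdpn (0.85 ± 0.32, adjusted p = 0.0581) and Tbx18 (0.51 ± 0.20, adjusted p = 0.0592), which did not follow the members between mice, had positive values in the same edgeR fit.

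The markers of other cell types differed as follows in the same comparison. All 10 adipocyte markers had negative fold changes on HFD in Lama4 AKO mice, 1 of them called, and their summed level was 15700 to 42096 CPM (median 31742) on chow and 9310 to 25407 CPM (median 11075) on HFD. The 8 macrophage markers all had positive fold changes, none called, with sums of 1307 to 5003 CPM (median 2745) on chow and 4355 to 6201 CPM (median 5714) on HFD. Of 8 endothelial markers 7 were negative, none called, with medians of 714 and 382 CPM, and of 5 smooth muscle markers 3 were negative and 2 positive, none called, with median sums of 339 and 139 CPM. Of 10 adipocyte progenitor markers, 7 were positive and 1 was called higher. The 4 B cell markers were all positive and 3 of 4 T cell markers were, none called. A nominal edgeR p under 0.05 was reached by 8 adipocyte and 7 endothelial markers, all lower, and an adjusted p of at most 0.05 by 4 of each. At that nominal p, 4 progenitor and 2 macrophage markers were higher, and of smooth muscle 2 were lower and 1 higher. Of all genes, 39.8% reached the nominal level and 22.1% the adjusted level. The part of these cell types in the values of the mesothelial genes was not tested. Library totals were 9156492 to 11640690 counts in the HFD-fed and 5579590 to 16457720 counts in the chow-fed Lama4 AKO mice.

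In Lama4 fl/fl mice, none of the 6 members was called between HFD and chow, where 0.173% of all genes were called and 9.01% had a nominal p under 0.05. Msln had a log2 fold change of -0.34 ± 0.56 (SE, edgeR adjusted p = 0.884), Upk3b of -0.32 ± 0.57, Lrrn4 of -0.24 ± 0.56 and Gpm6a of -0.26 ± 0.56. Krt19 (0.21 ± 0.60) and Wt1 (0.46 ± 0.38, edgeR adjusted p = 0.729) had positive values. No member had a nominal p under 0.05 here, and each value was smaller than 1.5 times its SE. In the 19 libraries, in which 3 of these HFD-fed mice and 1 of the chow-fed are missing, Msln had -0.95 ± 0.74 and Wt1 0.87 ± 0.47 (SE; edgeR adjusted p = 0.342 and adjusted p = 0.168), and again none was called, whereas 11.8% of all genes then were. Of the 20 further mesothelial genes, none was called in either direction, and the median was -0.045.

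Averaged over genotypes, none of the members was called between HFD and chow, with 2.25% of all genes called. Msln had a log2 fold change of -1.35 ± 0.41 (SE), with an adjusted p of 0.0387 (edgeR, Benjamini-Hochberg), and was the only member with an adjusted p under 0.05, a level that 12.4% of all genes reached and 6.98% did so as lower. Lrrn4 had -1.07 (adjusted p = 0.0706 in the same fit). A nominal p under 0.05 was reached by 3 members, all lower, against 35.5% of all genes in either direction and 18.4% as lower.

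The genotypes were compared within each diet. On chow, no member was called (0.113% of all genes were), and the log2 fold changes of Lama4 AKO against Lama4 fl/fl mice were 0.45 for Msln, 0.53 for Upk3b, 0.48 for Lrrn4, 0.46 for Krt19, 0.15 for Gpm6a and 0.0019 for Wt1, with an adjusted edgeR p of at least 0.962 for each. All 6 were positive, the last of them close to 0, while 49.4% of all genes were negative. With 1 library left out, the lowest values were -0.033 for Msln, -0.30 for Gpm6a and -0.16 for Wt1. By median CPM, Msln and Gpm6a were lower in the chow-fed Lama4 AKO mice. On HFD, no member was called (0.173% of all genes were), and all 6 values were negative, as were 53% of all genes. Msln had a log2 fold change of -1.57 ± 0.60 (SE; adjusted p = 0.293), Lrrn4 of -1.18 ± 0.58 (adjusted p = 0.340), Krt19 of -1.11 ± 0.62, Upk3b of -0.67 ± 0.57, Gpm6a of -0.60 ± 0.57 and Wt1 of -0.080 ± 0.38 (edgeR, Benjamini-Hochberg). Msln was the only member with a nominal p under 0.05 on HFD, where 14.8% of all genes had one and 8.99% had one as lower. In the 19 libraries its value was -0.92 ± 0.71 (SE, edgeR adjusted p = 0.702). The count of members with a nominal p under 0.05 on HFD was 2 on leaving out any 1 of the HFD-fed Lama4 AKO mice 2 and 3, the HFD-fed Lama4 fl/fl mice 1 and 2, the chow-fed Lama4 AKO mice 2, 3 and 4 or the chow-fed Lama4 fl/fl mice 1 and 2. Of the markers of other cell types in this comparison, all 10 of adipocytes, 7 of 8 of endothelium and 4 of 5 of smooth muscle were negative and all 8 of macrophages positive, none of them called. A nominal edgeR p under 0.05 was reached by 4 adipocyte, 1 endothelial and 1 smooth muscle marker, all lower, and by 1 macrophage marker, higher. The adipocyte sum was 9310 to 25407 CPM (median 11075) in Lama4 AKO and 9250 to 48033 CPM (median 19856) in Lama4 fl/fl mice on HFD. The part of these cell types in the member values was not tested. The HFD-fed Lama4 AKO mice are shared between this comparison and that of diet in Lama4 AKO mice, so the values are not independent. Averaged over diets, no member was called (0.0333% of all genes were), with an adjusted edgeR p of at least 0.953.

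The interaction of diet and genotype asks whether the HFD difference itself differed between Lama4 AKO and Lama4 fl/fl mice. No member was called for it, and 0.386% of all genes were. For Msln the difference was -2.02 ± 0.81 on the log2 scale (SE; adjusted p = 0.273) and for Lrrn4 it was -1.66 ± 0.80 (adjusted p = 0.320), with edgeR and Benjamini-Hochberg adjustment. Krt19 (-1.56), Upk3b (-1.20), Gpm6a (-0.75) and Wt1 (-0.082) had a nominal edgeR p above 0.05. At a nominal p under 0.05, 2 of the 6 members, both negative, stood against 15.6% of all genes and 8.74% as negative. This count rested on single libraries. It was 4 without the chow-fed Lama4 fl/fl mouse 1, 3 without the chow-fed Lama4 AKO mouse 4 and 0 without the chow-fed Lama4 AKO mouse 1. It was 1 without any of the chow-fed Lama4 fl/fl mice 2 to 6, the chow-fed Lama4 AKO mice 2 and 6, the HFD-fed Lama4 fl/fl mice 3 to 6 or the HFD-fed Lama4 AKO mice 1, 4, 5 and 6. With limma-voom, and in the 19 libraries, it was 0. The lower Msln on HFD was thus called in Lama4 AKO mice and not in Lama4 fl/fl mice, and a difference between genotypes did not pass the correction for multiple tests.

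**Figure D4:**
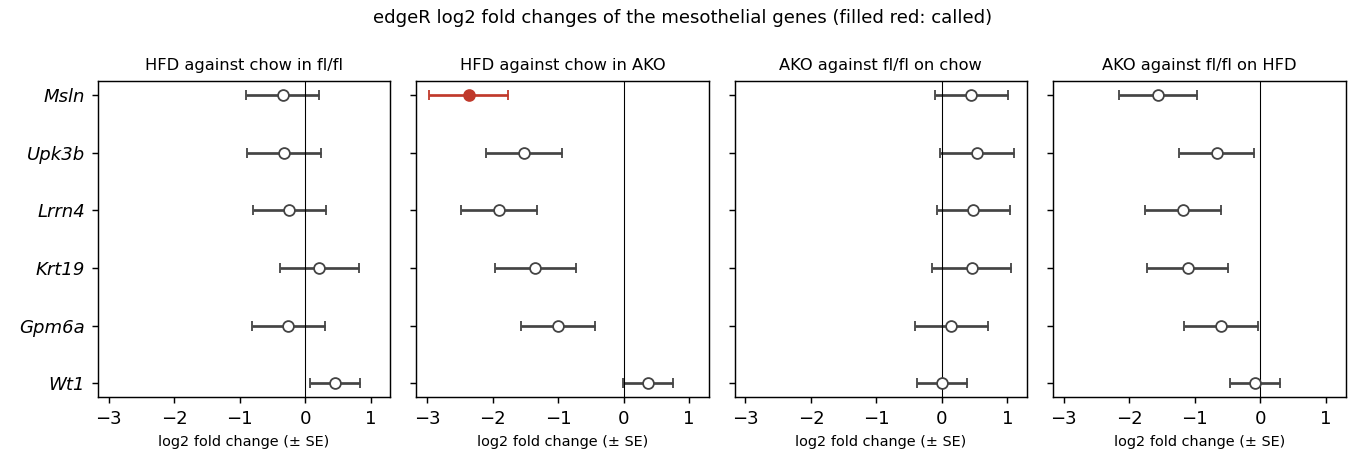
edgeR log2 fold changes with SE (horizontal axes) of the 6 mesothelial genes for HFD against chow and for Lama4 AKO against Lama4 fl/fl, 24 libraries. The single filled red point is Msln in HFD-fed against chow-fed Lama4 AKO mice, at -2.36.

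Since the members moved together between mice, each was also set against Upk3b within the same library, as the log2 ratio of their counts (with 0.5 added to each). Such a ratio does not depend on library scaling. A ratio shows unequal change and not which of the genes changed, and differences of length between genes cancel when a ratio is compared across groups. These ratios were chosen after seeing the data, and 20 comparisons were made, with two-sided exact permutation tests over mice (the smallest p that 6 against 6 mice allow is 0.00216).

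Wt1 stood higher against Upk3b in HFD-fed than in chow-fed Lama4 AKO mice. Upk3b had a log2 fold change of -1.52 and Wt1 of 0.38 in that comparison (edgeR), from the same counts. Which cells the shifted ratio came from was not tested. The log2 ratio of Wt1 to Upk3b was -2.18, -3.00, -0.92, -1.13, -1.10 and -1.13 in the chow-fed Lama4 AKO mice (replicates 1 to 6) and 0.29, 0.0069, -0.51, 1.77, -0.33 and 0.83 in the HFD-fed Lama4 AKO mice. The 2 sets of mice did not overlap, and how many other genes would separate them by a ratio to Upk3b was not counted. The means were -1.58 ± 0.83 and 0.34 ± 0.84 (SD, n = 6), a difference of 1.92 (exact permutation p = 0.00216, the smallest possible; Benjamini-Hochberg adjusted p = 0.0433 over the 20). In the 19 libraries the difference was 2.01. With the chow-fed Lama4 AKO mouse 1 or 2 left out it was 1.7999 or 1.63, each with an exact permutation p of 0.00433, and the adjusted p then exceeded 0.05. In Lama4 fl/fl mice the ratio was -1.08 ± 0.64 on chow and -0.70 ± 1.07 on HFD, a difference of 0.38 (exact permutation p = 0.470). Those HFD-fed Lama4 fl/fl mice were widely spread, from -2.26 in replicate 4 to 0.50 in replicate 5, and in the 19 libraries the difference was 0.85 (exact permutation p = 0.143). A test of whether the shift differed between genotypes was not made.

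The other 4 genes had no ratio with an adjusted p of at most 0.05. The lowest p among them was that of the Gpm6a ratio on chow, with means of -0.41 ± 0.24 in Lama4 AKO and 0.16 ± 0.41 in Lama4 fl/fl mice (SD, n = 6; exact permutation p = 0.00866, adjusted p = 0.0866). The Msln ratio on HFD had means of -2.50 in Lama4 AKO and -1.78 in Lama4 fl/fl mice, a difference of -0.72 (exact permutation p = 0.0152, adjusted p = 0.101). For HFD against chow in Lama4 AKO mice, the difference of the Msln ratio was -0.55 (exact permutation p = 0.169), so a change of Msln beyond that of Upk3b was not shown. For Lrrn4 and Krt19, every exact permutation p was at least 0.128.

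**Figure D5:**
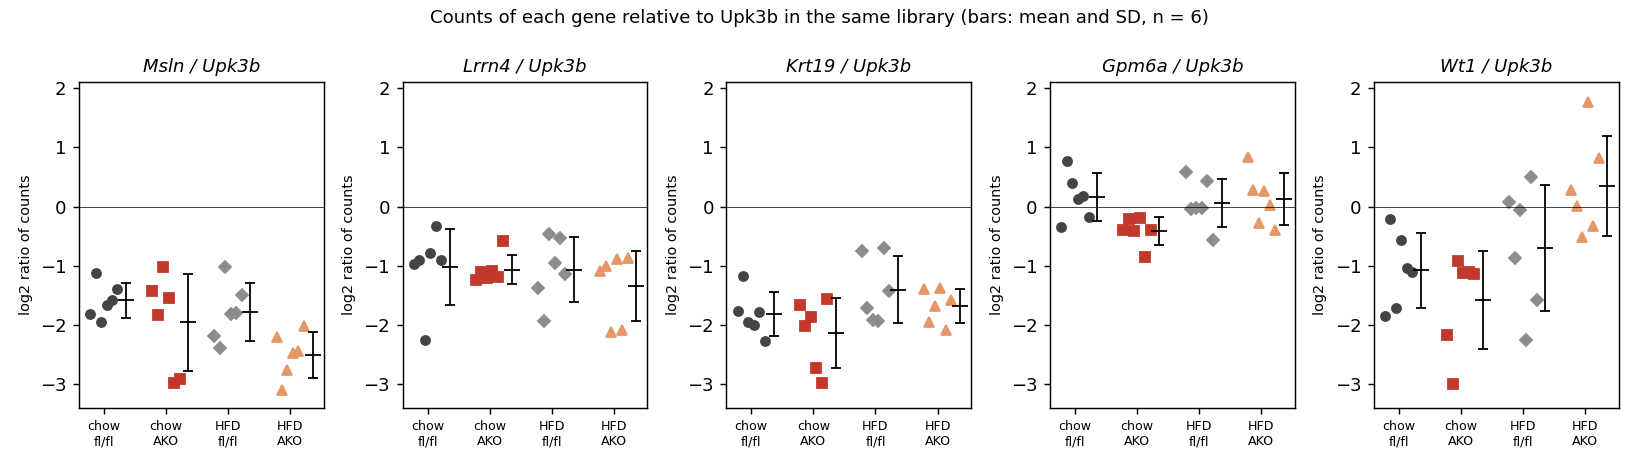
Log2 ratio of the counts of each gene to those of Upk3b in the same library (vertical axes) by group; points are mice and black bars the mean and SD of 6. The Wt1 ratio of HFD-fed Lama4 AKO mice (-0.51 to 1.77) lies above that of all chow-fed Lama4 AKO mice (-3.00 to -0.92).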

How the data were processed

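The authors sequenced 50-base QuantSeq 3′ reads from eWAT and, per the labels and methods, mapped and counted them with the Lexogen QuantSeq pipeline 1.8.8. They deposited raw counts per gene, and a second table of the same counts as a normalized signal, divided by size factors (DESeq2 1.30 in R 4.0.3), used here for symbols and positions only. The counts were fitted with edgeR 4.0.16 (R 4.3.3) after a filter that kept a gene reaching 1 CPM in 3 libraries or more, with TMM factors and 1 coefficient per group over 24 libraries. The study used limma-voom after removing outlying mice. Alternatives were limma-voom 3.58.1, DESeq2 1.42.0, RLE factors, no filter, only the groups compared, a replicate block, 19 libraries (mice left out inferred in an earlier reading of the study's plotted values), other call rules and each library left out. The script was tested on simulated data. Log2 CPM used a prior count of 2. Members and lists were chosen with earlier results of these data known. Named genes were all members, list genes called or with the lowest p, and the 10 most similar genes. The 60 within-group pairs of libraries differed beyond counting error (chi-square per degree of freedom at least 5.62). CPM from 3′ reads was not compared between genes as a level, and counting error alone limits low counts. The edgeR p-values set a group difference against the spread between mice, and the permutation p-values rest on reshuffling mice.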

Additional observations from a re-analysis of the deposited data

Results flagged for a closer look

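The HFD difference of 2 members was not the same in the genotypes by the edgeR interaction test at a nominal p under 0.05, which is what singled them out. For Msln the interaction was -2.02 on the log2 scale, from an HFD difference of -2.36 in Lama4 AKO and of -0.34 in Lama4 fl/fl mice (edgeR adjusted p = 0.273 over all genes tested). For Lrrn4 it was -1.66, from -1.90 and -0.24 (edgeR adjusted p = 0.320). Both fail the Benjamini-Hochberg correction, and 15.6% of all genes reached a nominal p under 0.05 in the same test. In the 19 libraries the edgeR values were -1.58 for Msln (adjusted p = 0.514) and -1.24 for Lrrn4 (adjusted p = 0.633). With 1 library left out, 0 to 4 members reached a nominal p under 0.05, and with limma-voom 0 did. No library stood apart from its group in any of the 24 sets of a member and a group (gap over range above 0.625 for 6 mice).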

How the results depend on the processing

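In Lama4 AKO mice, 1 member was called between HFD and chow, with 619 of all genes. It was 2 at an adjusted p of at most 0.05 (2422 genes) and with DESeq2 (1315 genes), 4 at a nominal p of at most 0.05 with no fold criterion (5444 genes), and 0 with limma-voom (604 genes), with only the groups compared (1388 genes) and with limma-voom in the 19 libraries (2362 genes). Leaving out each library gave 0 to 1. Averaged over genotypes, the count of 0 (338 genes) became 1 at an adjusted p of at most 0.05 (905 genes) and with DESeq2 (632 genes) and 3 at a nominal p (4841 genes). At a nominal p it was 1 for genotype on HFD (2014 genes) and 2 for the interaction (2141 genes). Msln in Lama4 AKO mice kept its sign in every setting: -2.14 with limma-voom and -2.37 with only the groups compared. RLE factors and no filter changed no count of members called. The cause of these shifts was not tested.

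Replicate numbers did not pair the mice: of 36 same-numbered pairs, 15 had a correlation of deviations over 0.1 (range -0.534 to 0.714, median 0.00181, against -0.00971 for 180 other pairs). With the replicate block, the count in Lama4 AKO mice was 0 (457 genes), with Msln at -2.19, and values that turned were Lrrn4 for diet in Lama4 fl/fl mice (0.030) and Wt1 for genotype on chow (-0.029), on HFD (0.086), averaged (0.029) and in the interaction (0.12).

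Of the log2 fold changes, 53 values turned their sign and 1260 kept sign and side of the threshold. Every one that turned was small in the main fit, at most 0.45 in size with p of at least 0.426 (edgeR). With limma-voom these were Wt1 for genotype on chow (-0.014), on HFD (0.10), averaged (0.043) and in the interaction (0.11), and Gpm6a for genotype on chow (-0.054). In the 19 libraries they were Wt1 for genotype on chow (-0.058) and Upk3b for genotype averaged (0.18), and with limma-voom Wt1 (-0.036), Upk3b (0.023) and Gpm6a for diet in Lama4 fl/fl mice (0.0019). Of the ratios to Upk3b in the 19 libraries, Gpm6a turned for diet in Lama4 fl/fl mice (0.22) and for genotype on HFD (-0.20).

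Leaving out each library, diet in Lama4 fl/fl mice ran from -0.58 to 0.069 for Msln, -0.59 to 0.16 for Upk3b, -0.51 to 0.28 for Lrrn4 and -0.47 to 0.021 for Gpm6a. Genotype on chow ran from -0.033 to 0.86 for Msln, -0.16 to 0.22 for Wt1 and -0.30 to 0.42 for Gpm6a. Genotype on HFD ran from -0.26 to 0.31 for Wt1, and averaged from -0.13 to 0.16 for Wt1 and -0.24 to 0.18 for Upk3b. The interaction of Wt1 ran from -0.30 to 0.31. The log2 ratio to Upk3b of Lrrn4 ran from -0.29 to 0.13 for diet in Lama4 fl/fl mice and -0.29 to 0.092 for genotype on chow, and that of Gpm6a from -0.20 to 0.029 for diet in Lama4 fl/fl mice and -0.075 to 0.17 for genotype on HFD. The 45 correlations of pairs recomputed under alternatives kept their sign and their side of the threshold. Depth limits Msln most, with 3 counts in its lowest library.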
